A study of Mus musculus with 24 samples.

Results

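The HoxD cluster lies on mouse chromosome 2 between genes that do not belong to the Hox family, and 8 of these flanking genes were examined in hindlimb buds of wild type and Nipbl+/- embryos. They are Evx2, Atf2, Nfe2l2, Chn1, Chrna1, Mtx2, Agps and Hnrnpa3. A gene was taken from the probe sets that the array annotation gives a single gene symbol, with the brightest one kept per gene. This gave a value for 7 of the 8 genes, each from 1 probe set, among 19937 genes in all. Hnrnpa3, which encodes an RNA-binding protein of the hnRNP A/B family, had 6 probe sets, and all 6 were also assigned to a second gene, so no value is given for it. RNA was pooled from the left and right hindlimb buds of single E10.5 embryos, with 12 wild type and 12 Nipbl+/- embryos and 1 Affymetrix Mouse Gene 1.0 ST array per embryo. Nipbl+/- embryos, of the RRS strain, carry 1 mutant Nipbl allele in all their cells, and wild type embryos carry none. All embryos were untreated. Values are log2 intensities, a ratio is Nipbl+/- over wild type, and a gene is called changed at an adjusted p under 0.05 in limma, adjusted over all genes.

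Nipbl loads cohesin onto chromosomes, and cohesin holds together distant stretches of the same chromosome, enhancers and promoters among them. The HoxD cluster sits at the border between a pair of large chromatin domains. Both hold limb enhancers, which act on the genes at one end of the cluster or the other. Evx2 and Lnpk lie on the side of Hoxd13, the 5′ side, and Mtx2 lies on the side of Hoxd1, the 3′ side. Evx2 is a homeobox gene that shares limb and digit enhancers with the 5′ HoxD genes, while most of the other flanking genes are expressed in many tissues. In gene order from the 5′ side, the annotation runs Chrna1, Chn1, Atf2, Atp5g3, Lnpk, Evx2, the HoxD cluster, Mtx2, Hnrnpa3, Nfe2l2 and Agps among the protein-coding genes named here. The whole stretch from Chrna1 to Agps holds 65 annotated genes, of which 20 are protein coding, and 18 of those were measured. The comparison asks whether these neighbours shared the lower level of the 5′ HoxD genes in mutant embryos.

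Evx2 and Hoxd13 are next to each other, start on opposite strands and point away from each other. The 250 bases before each start are shown because one of the pair was lower in mutant embryos and the other did not pass the test. All 8 flanking genes matched the RefSeq promoter table (GRCm38.p6). The Evx2 window is chr2:74659558-74659807 on the minus strand and the Hoxd13 window is chr2:74667975-74668224 on the plus strand. Both are written 5′ to 3′ on the strand of the gene, with each CpG in capitals.
Evx2: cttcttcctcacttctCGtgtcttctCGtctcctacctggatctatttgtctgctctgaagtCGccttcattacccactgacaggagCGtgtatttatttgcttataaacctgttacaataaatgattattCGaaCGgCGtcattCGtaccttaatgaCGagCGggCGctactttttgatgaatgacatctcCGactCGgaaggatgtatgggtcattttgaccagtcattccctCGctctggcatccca
Hoxd13: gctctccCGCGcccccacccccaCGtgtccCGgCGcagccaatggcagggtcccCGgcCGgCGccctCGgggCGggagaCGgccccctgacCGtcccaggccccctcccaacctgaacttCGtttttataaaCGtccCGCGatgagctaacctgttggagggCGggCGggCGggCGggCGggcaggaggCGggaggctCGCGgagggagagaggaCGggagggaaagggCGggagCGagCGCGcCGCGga

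The Evx2 window held 14 CpGs at a GC content of 45.6%, and the Hoxd13 window held 31 CpGs at 74.4%. At least as many CpGs were found in 29.4% of all 32851 promoter windows for Evx2 and in 5.19% for Hoxd13, and the median over all windows was 6. Of 4 motifs searched on both strands, the Evx2 window held TATAAA, which is present in 12.4% of windows. The Hoxd13 window held all 4, the others being CCAAT (33.9% of windows), GGGCGG (32.7%) and CACGTG (6.02%). The window of Hoxd12, which was also lower in mutant embryos, held 10 CpGs at a GC content of 55.6%, fewer CpGs than that of Evx2. At least as many CpGs were found in 37.8% of windows, and CCAAT was the only one of the 4 motifs in the Hoxd12 window. The windows of the other flanking genes ranged from 2 CpGs at one of the 2 Chn1 entries and 3 at Chrna1 to 40 at Hnrnpa3. A match is a match of letters, and the arrays measured no binding.

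The targeted gene separated the genotypes. The ratio of Nipbl was 0.630, and no mutant embryo overlapped the wild type ones (means of 10.52 ± 0.12 and 9.86 ± 0.12 on the log2 scale, SD, n = 12 each). Array medians ran from 7.24 to 7.39. The interquartile range of the log2 values on an array, called array spread here, was 3.21 to 3.69 in wild type arrays and 3.27 to 3.76 in mutant arrays. By the levels of Xist and Y-linked genes, 8 of 12 wild type and 3 of 12 mutant embryos were female.

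None of the 7 measured flanking genes passed the test, in either direction. By limma 0 were higher and 0 were lower, and 0 had an unadjusted p under 0.05. Among all genes 0.813% were called, 0.286% higher and 0.527% lower, and 9.26% had an unadjusted p under 0.05. At these shares a count of 0 among 7 genes is near the background. The 7 ratios ran from 0.957 for Evx2 to 1.09 for Agps, and their median log2 difference was 0.0082 against -0.0049 over all genes. All 7 genes overlapped between the genotypes, as the plot of each embryo shows. The ranges of Hoxd13, which was called lower, overlapped too, so overlap alone does not mark a gene as unchanged. The share of all genes without overlap is not given here. In whole limb buds, fewer cells that express a gene and less RNA per cell cannot be told apart.

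**Figure D1:**
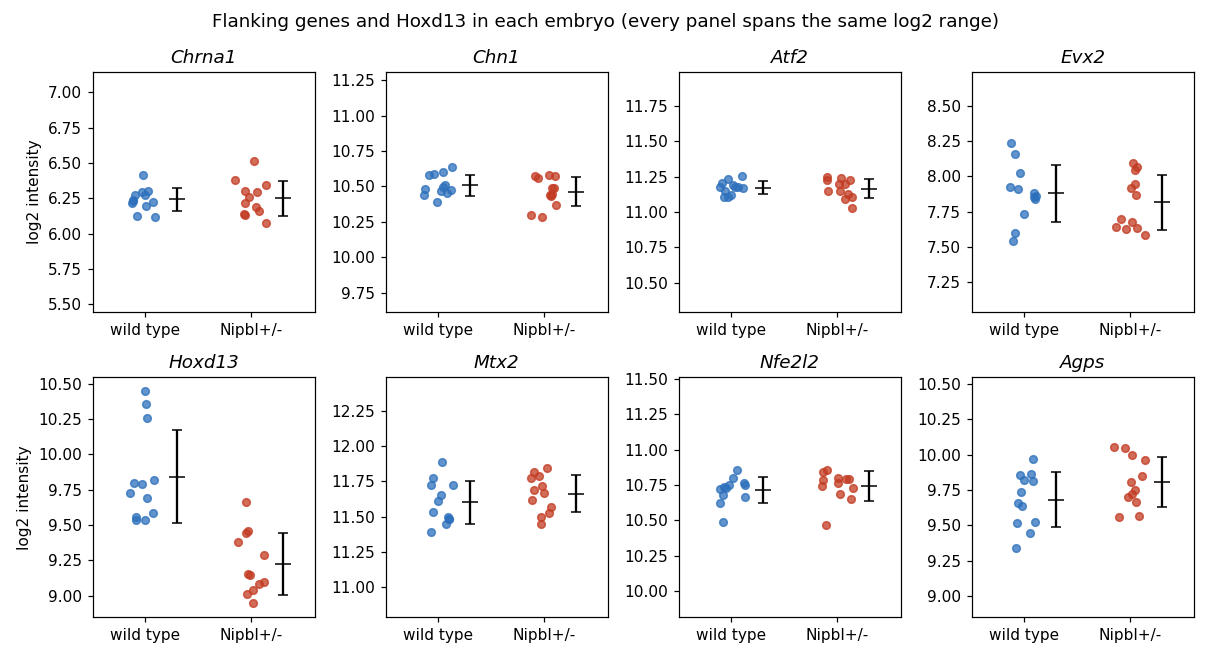
Log2 intensity of the 7 measured flanking genes and of Hoxd13 in each of 12 wild type embryos (blue) and 12 Nipbl+/- embryos (red), with mean and SD in black; every panel spans the same log2 range at its own level. The points of the flanking genes overlap between genotypes, while 11 of 12 mutant embryos lie below the lowest wild type embryo for Hoxd13.

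Evx2, the homeobox gene next to Hoxd13, had a log2 intensity from 7.54 to 8.24 in wild type embryos, with a median of 7.87. In mutant embryos it ran from 7.58 to 8.09, with a median of 7.78. Every mutant embryo lay within the wild type range, and 7 of 12 were under its mean. Among all genes Evx2 lay at percentile 52.6 of mean intensity and at percentile 88.3 of the spread within a genotype. No detection call was used for it, so whether its signal lay above background was not tested. The means of Evx2 were 7.88 ± 0.20 (SD, n = 12) and 7.82 ± 0.19 (SD, n = 12), a log2 difference of -0.064 (standard error 0.075) and a ratio of 0.957 with a 95% interval from 0.859 to 1.06 (adjusted p = 0.902 from limma). Evx1, the related homeobox gene beside the HoxA cluster, had a ratio of 0.912, with 10 of 12 mutant embryos under the wild type mean (adjusted p = 0.653 from limma).

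The pair of flanking genes that encode bZIP transcription factors had narrow ranges. Atf2, which binds DNA with Jun proteins and is activated by stress kinases, ran from 11.11 to 11.26 in the wild type (median 11.18) and from 11.03 to 11.25 in mutants (median 11.17). Its ratio was 0.995 (95% interval 0.952 to 1.04, adjusted p = 0.985 from limma), and its spread within a genotype was lower than that of all but 1.95% of genes. Nfe2l2, the factor that switches on antioxidant genes, ran from 10.49 to 10.86 in the wild type (median 10.73) and from 10.47 to 10.86 in mutants (median 10.78). Its ratio was 1.02 (95% interval 0.960 to 1.08, adjusted p = 0.941 from limma). In 9 of 12 mutants it exceeded the wild type mean. Both genes overlapped between the genotypes over most of their range.

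Chn1 encodes a chimerin, a protein that shuts off Rac downstream of the EphA4 receptor. It ran from 10.39 to 10.64 in the wild type (median 10.49) and from 10.29 to 10.58 in mutants (median 10.47), and 3 of 12 mutant embryos lay below the lowest wild type embryo. Its ratio was 0.967 (95% interval 0.914 to 1.02, adjusted p = 0.813 from limma). Chrna1 encodes a subunit of the acetylcholine receptor of skeletal muscle. It ran from 6.12 to 6.42 in the wild type (median 6.23) and from 6.08 to 6.51 in mutants (median 6.24), with a ratio of 1.01 (95% interval 0.945 to 1.07, adjusted p = 0.988 from limma). Its signal was dim, at percentile 28.8 of the mean intensities of all genes. No detection call was used, so whether it lay above background was not tested.

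On the 3′ side, Mtx2, a protein of the import and assembly machinery of the mitochondrial outer membrane, ran from 11.39 to 11.89 in the wild type (median 11.57) and from 11.45 to 11.85 in mutants (median 11.68). Its ratio was 1.04 (95% interval 0.963 to 1.13, adjusted p = 0.848 from limma). Agps, the peroxisomal enzyme that forms the ether bond of plasmalogens, ran from 9.34 to 9.97 in the wild type (median 9.70) and from 9.56 to 10.06 in mutants (median 9.78). Of the 7 genes it had the largest difference in either direction. Its means were 9.68 ± 0.19 (SD, n = 12) and 9.81 ± 0.18 (SD, n = 12), a log2 difference of 0.13 (standard error 0.071) and a ratio of 1.09 (95% interval 0.986 to 1.21, adjusted p = 0.647 from limma). Of 12 mutant embryos 9 exceeded the wild type mean of Agps, and 3 exceeded its highest wild type value.

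Hoxd13 and Hoxd12 were lower in mutant embryos. Hoxd13 had a ratio of 0.653 (95% interval 0.563 to 0.757, adjusted p = 0.00163 from limma) and Hoxd12 a ratio of 0.744 (95% interval 0.644 to 0.858, adjusted p = 0.0362), whereas Hoxd11, at 0.929, did not pass the test (adjusted p = 0.442). The call of Hoxd12 was lost in an unequal-variance test on linear values (adjusted p = 0.0908) and on leaving out any 1 of wild type replicates 2, 4, 5, 6, 8 and 10 or Nipbl+/- replicates 1, 2, 3, 7, 11 and 12 (adjusted p from 0.0516 to 0.0733 from limma). It held in the other 20 of 33 alternative settings. With replicate number as a block its adjusted p from limma was 4.16e-04. The lower limit of every flanking gene's interval, from 0.859 for Evx2 to 0.986 for Agps, lay above the upper limit for Hoxd13.

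The difference between a neighbour and a 5′ HoxD gene was tested directly, by taking one from the other within each embryo. The log2 change of Evx2 was less negative than that of Hoxd13 by 0.55 (standard error 0.13, 95% interval 0.30 to 0.81, adjusted p = 4.58e-05 from limma). For the other 6 flanking genes the gap ran from 0.57 for Chn1 to 0.74 for Agps, and all 7 passed. That share is no property of these neighbours, because 99.7% of all genes passed the same test. Against Hoxd12 all 7 passed as well, beside 98.6% of all genes, and the gap for Evx2 was 0.36 (standard error 0.13, adjusted p = 0.00558 from limma). Against Hoxd11, 0 of 7 passed in limma and 1.38% of all genes did. Mtx2, Nfe2l2 and Agps had an unadjusted p under 0.05 there, and the gap was 0.23 for Agps (adjusted p = 0.0935) and 0.042 for Evx2 (95% interval -0.14 to 0.22, adjusted p = 0.724). These tests share the Hoxd13, Hoxd12 or Hoxd11 values of the same embryos and so are not independent of each other.

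**Figure D2:**
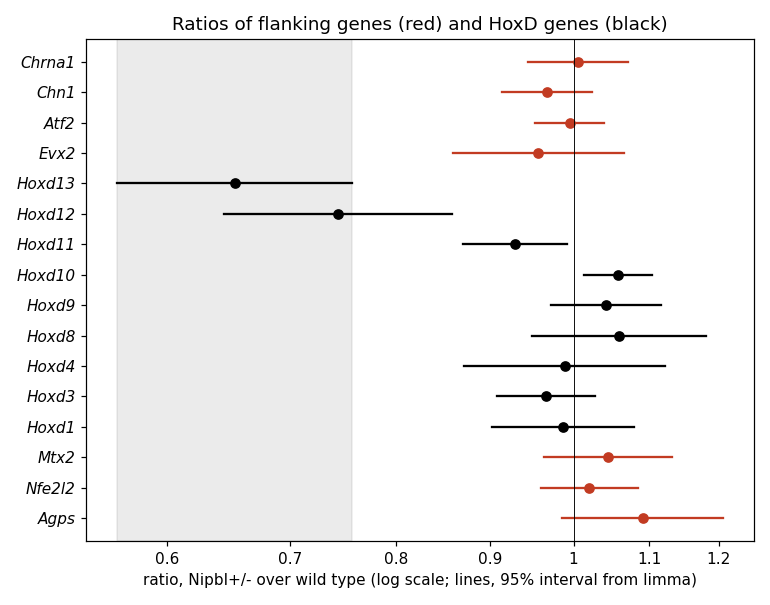
Ratio of Nipbl+/- over wild type (horizontal log axis) with its 95% interval from limma for 7 flanking genes (red) and 9 HoxD genes (black), in chromosome order, with the interval of Hoxd13 shaded. The intervals of the 7 flanking genes lie to the right of the shaded range and include 1.

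The neighbourhood was then widened to the 25 measured genes on each side of the cluster. Of these 50 genes 1 rose, 1 fell and 48 were not called, against 0.813% called among all genes. The higher one was Pdk1, a kinase that inhibits pyruvate dehydrogenase, whose ratio was 1.23 (adjusted p = 0.00485 from limma). It exceeded the wild type mean in all 12 mutants. The lower gene was Itga4, an integrin subunit for fibronectin and Vcam1, whose ratio was 0.764 (adjusted p = 0.00282 from limma). It was under the wild type mean in all 12 mutants. Pdk1 lies on the 5′ side and Itga4 on the 3′ side, and both are outside the nearest 10 measured genes.

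Of the 20 genes within 10 measured genes of the cluster, 0 were called by limma and 1 was higher at an unadjusted p under 0.05. Between Chrna1 and Agps, with HoxD left out, 10 genes were measured and 0 were called, also at an unadjusted p under 0.05. They include Lnpk, which shapes the endoplasmic reticulum and lies next to Evx2 (ratio 1.05, adjusted p = 0.880 from limma), and Atp5g3, a subunit of the mitochondrial ATP synthase (ratio 1.04, adjusted p = 0.673). Their log2 differences ran from -0.064 for Evx2 to 0.13 for Agps, with a median of 0.027.

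**Figure D3:**
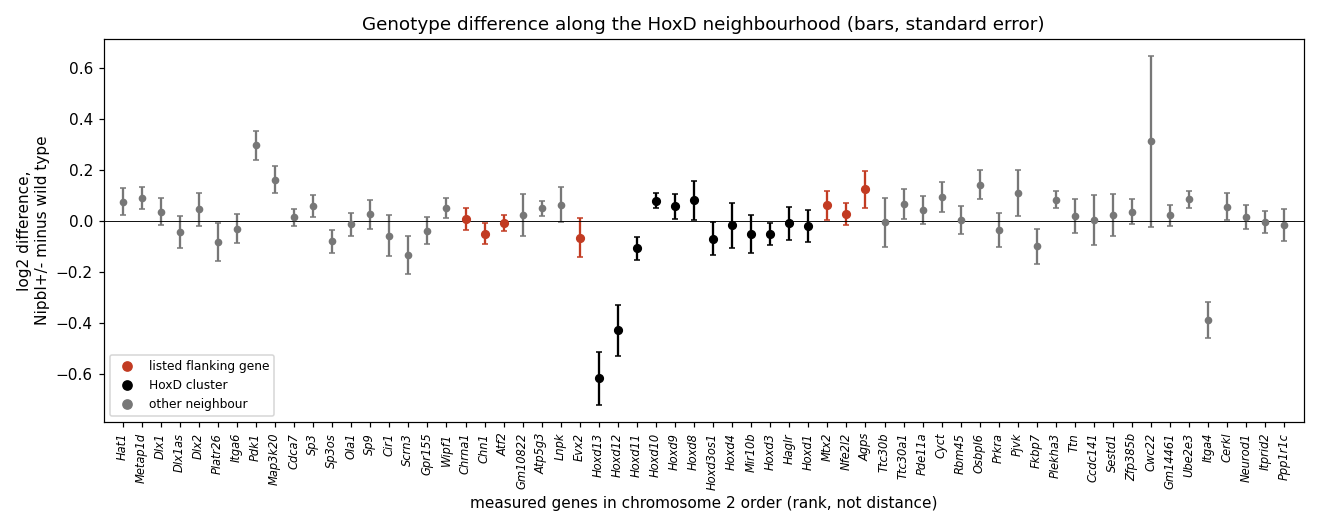
Log2 difference, Nipbl+/- minus wild type, with its standard error for the measured genes of the HoxD neighbourhood in chromosome order (rank, not distance): 7 flanking genes (red), genes inside the cluster (black) and other neighbours (grey). Hoxd13 and Hoxd12 lie lowest, at -0.61 and -0.43, Itga4 lies at -0.39 and Pdk1 at 0.30.

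Genes that act with the flanking genes were counted in the same fit. Of 8 Nfe2l2 partners, among them the inhibitor Keap1 (ratio 1.01), its ligase Cul3 (0.998) and the small Maf proteins, 0 were called by limma, and 0 had an unadjusted p under 0.05. Of 20 measured Nfe2l2 target genes 1 rose, 0 fell and 19 were not called, with a median log2 difference of -0.0063. The higher one was the cystine transporter Slc7a11 (ratio 1.44, adjusted p = 0.00593 from limma). At an unadjusted p under 0.05, 2 were higher and 1 was lower. The next smallest p belonged to the glutathione transferase Gstm1 (ratio 0.907, adjusted p = 0.493) and the transketolase Tkt (1.07, adjusted p = 0.500). The other 17 measured targets had ratios from 0.931 for Nqo1 to 1.06 for Srxn1.

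Of 11 measured Atf2 partners and kinases 0 rose, 1 fell and 10 were not called. The gene that fell was Jun, a dimer partner of Atf2, with a log2 difference of -0.38 (standard error 0.073, ratio 0.770, adjusted p = 0.00533 from limma). The related Jund had a ratio of 0.912 (adjusted p = 0.344) and the stress kinase Mapk14 a ratio of 1.05 (adjusted p = 0.455). Of 10 genes of EphA4 and chimerin signalling, in which Chn1 acts, 0 rose, 2 fell and 8 were not called. Those that fell were the receptor Epha4 (log2 difference -0.33, standard error 0.054, ratio 0.794, adjusted p = 0.00130 from limma) and the ligand Efnb2 (ratio 0.871, adjusted p = 0.0109). Chn2, the other chimerin, had a ratio of 0.908 (adjusted p = 0.260).

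In the lists around the remaining genes nothing was called by limma. They hold 7 genes of the muscle acetylcholine receptor and its synapse (Rapsn 0.95, Musk 1.04 and Chrnd 1.03 had the smallest p), 10 of mitochondrial outer membrane import and assembly (Tomm20 1.05, Tomm70a 1.06, Samm50 1.04), 8 measured of ether lipid synthesis and peroxisome import (Tmem189 0.920, Gnpat 1.07, Pex7 1.07) and 5 measured of the hnRNP A/B family (Hnrnpa2b1 1.05, Hnrnpdl 1.02, Hnrnpab 0.978). At an unadjusted p under 0.05 there were 0 genes in the receptor and mitochondrial lists, 1 higher and 1 lower in the ether lipid list, and 1 higher in the hnRNP list. Over all these lists, the called genes were Jun, Epha4, Efnb2 and Slc7a11. Among all genes 0.813% were called. The lists were chosen with earlier results of these data known, so their calls do not show that such genes changed more often than others.

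Markers of the cell types that a limb bud can hold were measured beside these values. Of the 8 hindlimb mesenchyme genes, among them Tbx4 (ratio 0.994), Pitx1 (0.949) and Hand2 (0.919), 0 were called. A ratio below 1 was found for 4 of these 8, and the ratios ran from 0.919 for Hand2 to 1.09 for Fgf10. The defining hindlimb markers had mean log2 intensities of 11.71 ± 0.08 and 11.70 ± 0.09 (Tbx4) and 11.54 ± 0.09 and 11.47 ± 0.09 (Pitx1) in wild type and mutant embryos (SD, n = 12 each). In limma 0 were also called among 8 myogenic, 12 neural, 8 ectodermal, 6 endothelial, 6 macrophage and 5 measured erythroid genes. At an unadjusted p under 0.05, 1 mesenchymal gene was lower, 1 myogenic and 2 ectodermal genes were higher, and 3 macrophage genes were lower. All 6 macrophage ratios were below 1, from 0.866 for Mrc1 to 0.993 for Cd68. By the same unadjusted cut, 1024 of all 19937 genes were lower and 823 were higher. A ratio below 1 was found for 10668 of the 19937. Whether the macrophage list as a set departs from this background was not tested. The summed linear intensity of the macrophage list ran from 693 to 807 in the wild type and from 635 to 767 in mutants, and that of the myogenic list from 1496 to 1802 and from 1526 to 1931. Their part in the values of the flanking genes was not tested.

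Flanking genes were also followed against Hoxd13 from embryo to embryo, within each genotype, in 14 relations adjusted together. In wild type embryos the relation of Evx2 with Hoxd13 was positive but did not pass (Pearson r = 0.593, permutation p = 0.0428, adjusted p = 0.10; Spearman rho = 0.392, permutation p = 0.209, adjusted p = 0.419). Without the 2 embryos farthest from the median of Hoxd13 the r was 0.435. In mutant embryos it was negative, and it passed by Spearman rho but not by Pearson r (r = -0.662, permutation p = 0.0212, adjusted p = 0.0593; rho = -0.741, permutation p = 0.00818, adjusted p = 0.0286), and without 2 embryos the r was -0.607. A larger r in size with Hoxd13 was found for 20.3% of all genes in mutant embryos and for 7.31% in wild type embryos. The slope of Evx2 on Hoxd13 differed between genotypes by -0.95 (standard error 0.25, unadjusted p = 8.91e-04, adjusted p = 0.130 from limma). No gene passed that test of slopes, which is 0% of 19936 genes, although 18.9% had an unadjusted p under 0.05.

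Of the 14 Pearson correlations 1 passed, that of Chn1 with Hoxd13 in mutant embryos (r = 0.790, permutation p = 0.00283, adjusted p = 0.0396; rho = 0.867, permutation p = 5.50e-04, adjusted p = 0.00770). Without the 2 embryos farthest from the median the r was 0.747 and no longer passed (adjusted p = 0.101). In mutant embryos 5.65% of all genes had a larger r in size with Hoxd13. In wild type embryos the r of Chn1 was 0.195. For Chrna1 in wild type embryos the r was 0.467 with all 12 embryos and 0.854 without 2 (adjusted p = 0.0300), so that this relation depends on which embryos are included. Atf2 (r = 0.660), Agps (0.689) and Chrna1 (-0.671) in mutant embryos had an adjusted p of 0.0593 each. By Spearman rho, 5 of the 14 relations passed, those of Evx2, Atf2, Agps, Chn1 and Chrna1 in mutant embryos. Correlations of this size with Hoxd13 were common in mutant embryos: a larger Pearson r in size was found for 20.6% of all genes in the case of Atf2, 16.5% for Agps and 19.0% for Chrna1.

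Array spread, a property of the whole array, was set beside the flanking genes. In mutant embryos Evx2 had an r with array spread of -0.953, Chrna1 -0.890, Agps 0.804, Chn1 0.704, Atf2 0.677, Nfe2l2 0.579 and Mtx2 0.205, while Hoxd13 itself had 0.766. In wild type embryos the values were -0.629 for Evx2, 0.209 for Chrna1, 0.898 for Agps, 0.864 for Chn1, 0.440 for Atf2, 0.537 for Nfe2l2 and 0.702 for Mtx2, and 0.024 for Hoxd13. Over the 24 embryos, with each genotype centred on its mean, the size of this r lay at percentile 93.2 of all genes for Agps, 86.4 for Evx2 and 81.7 for Chn1, and between 39.0 and 54.8 for Mtx2, Chrna1, Nfe2l2 and Atf2. With array spread held fixed, the partial r with Hoxd13 in mutant embryos was 0.354 for Evx2, no longer negative, and 0.549 for Chn1. The partial r was not tested, and that of Evx2 rests on little variation, given its r of -0.953 with array spread. In wild type embryos the partial r of Evx2 was 0.783. With array spread as a covariate the slope difference of Evx2 was -0.37 (adjusted p = 0.982 from limma). These correlations with array spread are given as descriptions over 12 embryos of a genotype each.

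**Figure D4:**
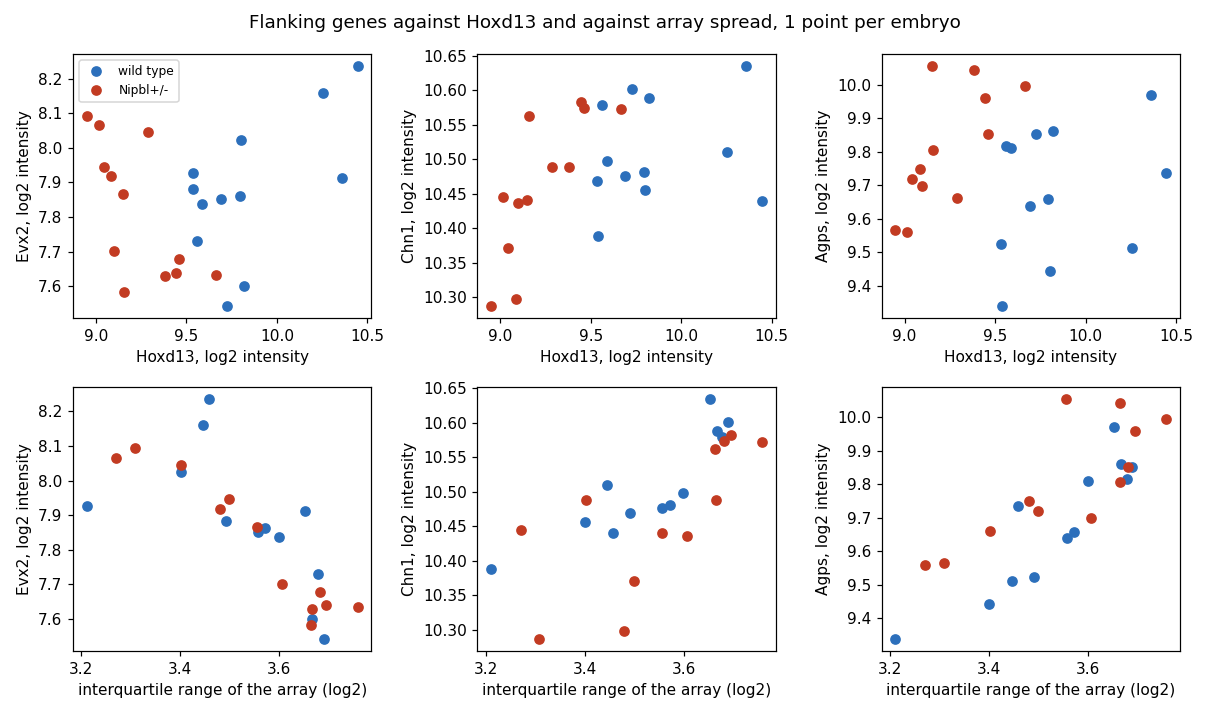
Log2 intensity of Evx2, Chn1 and Agps in each wild type (blue) and Nipbl+/- (red) embryo against Hoxd13 (top row, log2 intensity) and against the interquartile range of the log2 values of its array (bottom row). Evx2 falls and Agps rises with array spread in both genotypes (r of -0.629 and 0.898 in wild type, -0.953 and 0.804 in mutant embryos).

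With array spread as a covariate 0 of the 7 flanking genes were called, and the log2 differences were -0.050 for Evx2 and 0.11 for Agps (adjusted p = 0.691 and 0.176 from limma, unadjusted p of 0.012 for Agps). With embryo sex as a covariate 0 of 7 were called as well, but some values moved. That of Chn1 went from -0.048 to -0.076 (unadjusted p from 0.236 to 0.0887, adjusted p = 0.667 from limma), that of Atf2 from -0.0072 to -0.018 and that of Chrna1 from 0.0082 to 0.023. Evx2 was at -0.061, Agps at 0.10, Mtx2 at 0.079 and Nfe2l2 at 0.029, and Hoxd13 remained lower at -0.70 (adjusted p = 8.82e-04).

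The flanking genes varied among themselves in 2 directions. After each genotype was centred on its mean, the r between members over 24 embryos ran from -0.650 for Chn1 and Evx2 to 0.655 for Chn1 and Agps. Evx2 had a negative r with each other flanking gene except Chrna1 (0.559). The genes most like Evx2 over the 24 embryos were Wnt3a (r = 0.919), Pdzd7 (0.899) and Zc3h12d (0.896), whose r with array spread ran from -0.873 to -0.812. Those most like Agps were Wdr37 (0.935), Maoa (0.919) and Ccdc71l (0.905), and those most like Chn1 were Cav2 (0.897), Ccdc186 (0.890) and Lrif1 (0.887). Their r with array spread ran from 0.789 to 0.891 for the genes like Agps and from 0.712 to 0.801 for those like Chn1. The nearest to Mtx2 were Wdr12 (0.883), Ippk (0.879) and Vamp3 (0.874), and to Nfe2l2 they were Sugt1 (0.858), Ssu72 (0.842) and Cript (0.840). For Atf2 they were Trim13 (0.798), Dcbld2 (0.796) and Papolg (0.796), and for Chrna1 they were Nol3 (0.815), Rsph4a (0.815) and Mir219a-1 (0.784). The r with array spread ran from 0.443 to 0.889 for the genes nearest to Mtx2, Nfe2l2 and Atf2. For those nearest to Chrna1 it ran from -0.676 to -0.621. None of these 21 genes lies in the HoxD neighbourhood. That neighbourhood holds 50 of the 19937 genes beside the cluster itself, so a count of 0 among 21 is near the background.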

How the data were processed

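Each array carried RNA from the left and right hindlimb buds of 1 embryo. The authors used GenePattern's Expression File Creator, and RMA is named in the submitters' processing notes. The deposited values are therefore taken as log2 intensities per probe set, after the background correction and quantile normalization that RMA usually includes. That these steps were applied is inferred from the name RMA. No source used here gives the RMA version. Such normalization can hide a change shared by most genes. Of 28159 probe sets 21640 had 1 gene symbol, 1321 several and 5198 none listed, and 21553 matched RefSeq genes (GRCm38.p6) by Entrez ID. That table gave names and gene order only. The brightest probe set over 24 arrays was kept for 954 genes with more than 1. No pair of arrays was identical.

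Genotypes, taken from the sample labels, were compared with limma 3.58.1 (lmFit, eBayes) in R 4.3.3, with Benjamini-Hochberg adjustment over 19937 genes. The methods name Comparative Markers Selection without its statistic. The change of each gene against Hoxd13, Hoxd12 and Hoxd11 was tested on within-embryo differences. Correlations used two-sided permutation tests with 100000 resamples (scipy 1.17.1). Embryo sex was read from Xist and Y-linked genes. The fit was tested on simulated data of 19937 genes with the design of Nipbl+/- against wild type, and it recovered 84% of changes of -0.3 and 90% of changes of 0.3, and 100% at -0.6 and 0.6. Labels call the replicates biological. Precision is limited by the number of arrays.

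The flanking genes and all lists were chosen with earlier results of these data known. Genes named are the flanking and HoxD genes, Evx1 and Nipbl, called genes of the neighbourhood and of the lists, up to 3 genes per list with the smallest p, and the 3 genes most like each flanking gene. Keap1, Cul3, Nqo1, Srxn1, Tbx4, Pitx1, Cd68, Lnpk and Atp5g3 were named after their values were seen. Alternatives covered the summary per gene, leaving out dim genes, the variance model, an unequal-variance test of linear intensities, weights per array, replicate number as a block, embryo sex, array medians, a narrower neighbourhood, single embryos left out and, chosen after seeing the data, array spread. Plots used Python 3.11.15 and matplotlib 3.10.9.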

Additional observations from a re-analysis of the deposited data

How the results depend on the processing

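In 33 alternatives 0 of the 7 flanking genes were called higher or lower, and all 7 changes differed from that of Hoxd13. In the main setting 0.813% of all genes were called, and 99.7% had a change less negative than that of Hoxd13. Neither count is therefore particular to these neighbours. The calls of Hoxd13, Jun, Epha4, Efnb2, Slc7a11, Pdk1 and Itga4 also held in all 33. The log2 difference of Evx2 ran from -0.098 to -0.032 and that of Agps from 0.094 to 0.15. Differences near 0 changed sign. Atf2 was at 0.0042 with array medians set to 0, and leaving out single embryos gave values from -0.015 to 0.0057. Chrna1 was at -0.024 with array weights, and leaving out single embryos gave values from -0.016 to 0.024. Without the 2 embryos farthest from the median of Hoxd13, the correlations with Hoxd13 were -0.040 for Atf2 and -0.096 for Agps in wild type and 0.147 for Mtx2 in mutant embryos, where 0.230, 0.269 and -0.274 were found with all 12. That of Chrna1 in wild type rose to 0.854 and passed, and that of Chn1 in mutant embryos was 0.747 and no longer passed. Given array spread, the partial r was 0.549 for Chn1 in mutant embryos and had the other sign for Evx2 (0.354), Nfe2l2 (-0.206) and Chrna1 (0.037) there, and it was 0.297 for Atf2, 0.192 for Agps and -0.686 for Mtx2; in wild type embryos it was 0.560 for Agps. The cause was not tested. With 10 genes on each side 0 neighbourhood genes were called, since Pdk1 and Itga4 then lie outside.

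Replicate numbers were checked for pairing. Taken over all genes, 5 of 12 pairs had deviations correlated above 0.1 (r from -0.355 to 0.282). Of 12 wild type embryos 3 correlated best with their own number. The main fit therefore took no pairing. The paper describes the embryos as stage-matched littermates, and the labels do not say whether the numbers mark litters. With the replicate number as a block 48 genes were higher and 121 lower, against 57 and 105 without it, and Evx2 stayed at -0.064 (adjusted p = 0.940 from limma). The adjusted p from limma with this block was 1.11e-04 for Hoxd13 and 4.16e-04 for Hoxd12, against 0.00163 and 0.0362 without it. Embryos of the same number may thus share variation in these HoxD genes, which was not tested. Over all genes, array weights gave 101 higher and 180 lower, and array spread as a covariate, chosen after seeing the data, gave 185 and 302. The embryo sex covariate gave 35 and 97, and array medians set to 0 gave 73 and 94. The 7 measured flanking genes had 1 usable probe set each and Hnrnpa3 had none, so no other probe set could be tried.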
